A study of Mus musculus with 20 samples.

Results

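Immediate early genes are the first genes that a neuron transcribes after it has been stimulated, and 10 of them are described here mouse by mouse in the cerebellum. The genes, chosen by name as activity-dependent genes and found by symbol among the Ensembl ids of the count table, are Fos, Fosb, Junb, Egr1, Egr2, Arc, Nr4a1, Npas4, Ier2 and Dusp1. They are 10 of 55401 genes in the table and of 21897 protein-coding genes with an annotation, and each was found.

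When synapses or growth factor receptors are activated, calcium and kinase cascades phosphorylate transcription factors that already sit on the promoters of these genes, such as CREB and the ternary complex of SRF, so that transcription starts without new protein being made. The RNAs are short-lived, and their level in a tissue therefore follows recent activity, handling, arousal and stress. Fos, FosB and JunB are subunits of the AP-1 transcription factor, Egr1 and Egr2 are zinc finger factors, Nr4a1 is an orphan nuclear receptor and Npas4 is a bHLH-PAS factor that responds to calcium entry in neurons. Arc is an effector that acts at the synapse, where it takes part in the internalization of AMPA receptors. Ier2 is a small nuclear protein, and Dusp1 is a phosphatase that removes phosphates from MAP kinases and so limits the signal that induces the others.

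The study asked how shRNAs against the expanded CAG repeat of Atxn7 act in mice that model the polyglutamine disease spinocerebellar ataxia type 7 (SCA7), and RNA was sequenced from the cerebella of 20 C57BL/6J mice, 1 cerebellum in each library. SCA7 mice are 140Q/5Q knock-in animals that carry 1 expanded and 1 short Atxn7 allele. Of these, 5 received the CAG-targeting shA4 (SCA7_shA4_25w) and 5 the scrambled shSCR (SCA7_shSCR_25w) in an AAV PHP.eB vector, and 4 untreated wild-type (WT) mice (WT_NT_25w) stand beside them, all at the label 25w. At the label 9w there are 3 WT mice with shA4 (WT_shA4_9w) and 3 untreated WT mice (WT_NT_9w). The vector expresses the shRNA from an H1 promoter beside an eGFP cassette and, by the authors' account, enters Purkinje cells far more often than granule cells. Untreated mice received saline by the study's methods, so that vector and genotype change together between either SCA7 group and the WT mice. No untreated SCA7 mice and no WT mice with shSCR are among these libraries.

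Each library holds between 31465586 and 54570503 counted reads. The summed level of 10 Purkinje cell markers was 7370 to 8629 CPM (counts scaled to a fixed library size) in the 10 SCA7 mice and 10000 to 11070 CPM in the WT mice at 25w, and 10 granule cell markers summed to 5072 to 7426 CPM over all groups, so both neuron types that define this tissue were present. Choroid plexus markers ranged from 52.2 to 3904 CPM between mice. Atxn7 itself, the gene that the shRNA targets, lay at 44.5 to 51.7 CPM with shA4 and 45.6 to 53.4 CPM with shSCR. In WT mice at 25w it lay at 45.7 to 50.2 CPM, and the 3 ranges overlap. These counts pool the expanded and the short allele. The study measured the lowering by shA4 on protein, where the mutant form fell in the cerebellum and the normal form did not. That protein came from mice killed sooner after injection than the SCA7 mice sequenced here. In a bulk tissue, fewer cells of a type and less RNA per cell cannot be told apart.

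RefSeq promoter sequences, 250 bases before to 50 bases after the start on build GRCm38.p6, were at hand for 7 of the 10 genes (Fos, Fosb, Junb, Egr2, Nr4a1, Npas4 and Dusp1). They are shown because stimulated transcription of these genes starts there and because the 7 genes share a short motif. The letters TGACG, the core of the cAMP response element that CREB binds, occur on either strand in the promoters of 7 of 7 genes, against 23.0% of the 27025 genes in the table. The stretches run from 15 bases before the first match to 15 bases after the last one before the start, 5′ to 3′ on the strand of the gene, and capitals mark TGACG or its reverse complement. They lie at chr12:85473746-85473843 (Fos, plus strand), chr7:19310086-19310120 (Fosb, minus strand), chr8:84978835-84978869 (Junb, minus strand), chr10:67537743-67537833 (Egr2, plus strand), chr15:101266598-101266825 (Nr4a1, plus strand), chr19:4990121-4990165 (Npas4, minus strand) and chr17:26508593-26508678 (Dusp1, minus strand). Egr2 has 5 start sites in the table, and the stretch belongs to the first of them with a match.
Fos: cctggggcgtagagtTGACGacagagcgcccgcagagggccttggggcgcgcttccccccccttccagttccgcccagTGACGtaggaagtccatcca
Fosb: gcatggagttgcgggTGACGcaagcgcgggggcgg
Junb: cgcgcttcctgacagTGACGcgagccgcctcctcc
Egr2: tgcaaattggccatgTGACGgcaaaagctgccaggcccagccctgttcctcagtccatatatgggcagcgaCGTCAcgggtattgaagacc
Nr4a1: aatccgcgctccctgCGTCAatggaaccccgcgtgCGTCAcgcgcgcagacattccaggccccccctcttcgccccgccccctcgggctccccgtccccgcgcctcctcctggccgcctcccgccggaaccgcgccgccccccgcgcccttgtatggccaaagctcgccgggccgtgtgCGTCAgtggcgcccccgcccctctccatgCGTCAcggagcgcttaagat
Npas4: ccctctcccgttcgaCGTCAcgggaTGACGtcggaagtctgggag
Dusp1: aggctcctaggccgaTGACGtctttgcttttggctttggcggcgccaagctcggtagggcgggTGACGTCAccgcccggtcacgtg

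The full element TGACGTCA, which holds TGACG within it, was found in Dusp1 alone of the 7 genes, against 2.03% of all genes. A CArG box, the motif of SRF, was found in the window of Egr2 alone, against 1.81% of genes. The letters TATAAA of the TATA box, searched on the strand of the gene, were in 2 of the 7 (Fos and Junb, 9.77% of all genes). They lie at positions -33 to -28 in Fos but at 1 to 6 in Junb, at the start itself. The EGR motif GCGNGGGCG was in 2 of the 7 (Fosb and Nr4a1, 6.27%). The AP-1 motif TGANTCA was in none of the 7 windows and in 8.97% of all genes. All but the TATA box were searched on both strands. A match describes letters in a window of this length and is not a measurement of binding.

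The 10 genes covered a wide range of levels. Per kilobase of the median annotated transcript, the mean over 20 mice was highest for Fos (25.3 ± 11.8 CPM per kb, SD, n = 20), followed by Dusp1 (22.6 ± 4.77), Nr4a1 (17.1 ± 4.40), Egr1 (16.7 ± 3.59), Arc (9.50 ± 1.42), Ier2 (9.11 ± 1.59) and Junb (7.23 ± 1.32). Npas4 (1.16 ± 0.367 CPM per kb), Fosb (0.337 ± 0.146) and Egr2 (0.175 ± 0.110) stood well below. Within mice, Fos exceeded Dusp1 in 11 of 20, Nr4a1 exceeded Egr1 in 11 of 20 and Arc exceeded Ier2 in 12 of 20, so these neighbours are not ordered beyond their spread. Npas4 lay above Fosb in 20 of 20 mice, and Fosb above Egr2 in 19 of 20. The order depends on the length used, which was 814.5 bases for Fos and 3760 bases for Egr1. Without division by length, the mean was 62.8 CPM for Egr1, 38.4 for Dusp1, 29.0 for Arc, 28.9 for Nr4a1 and 20.6 for Fos. Egr2 had 1 to 14 reads in a library, too few for the fits of the 9w or the 25w mice alone, and is given there by its levels.

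**Figure D1:**
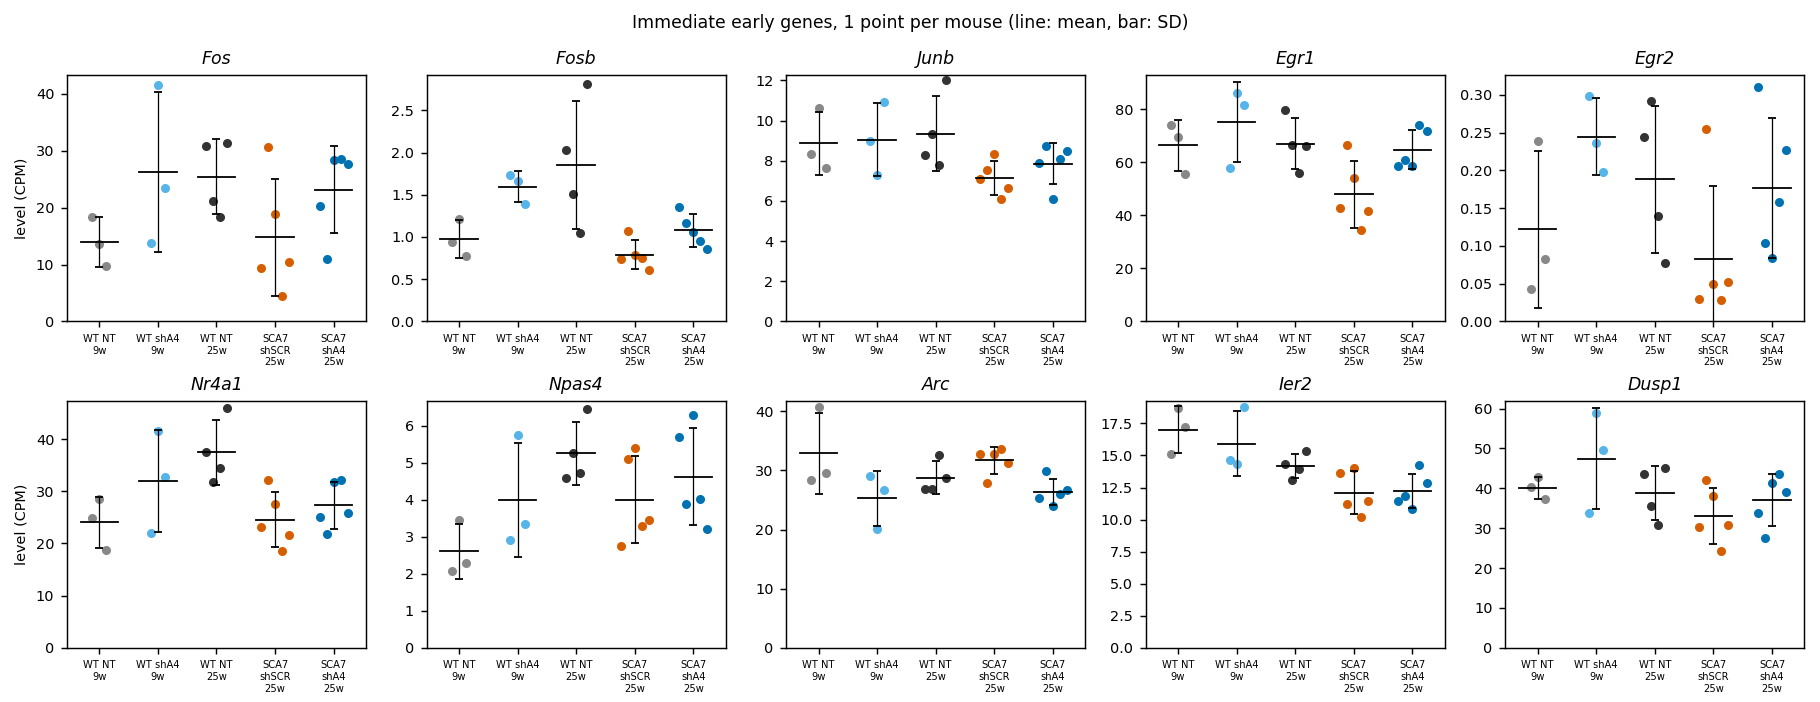
Level of each of the 10 genes in CPM (vertical axis, linear from 0) in each of 20 mice, by group (horizontal axis), with the mean as a line and the SD as a bar. Fos ranged from 4.55 to 41.5 CPM over the mice and Arc from 20.2 to 40.8 CPM, and in the SCA7 groups Fosb stayed between 0.607 and 1.35 CPM.

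In SCA7 mice with shSCR, Fosb, Nr4a1 and Egr1 fell against WT mice of the same label. They are 3 of 9 genes tested, all 3 lower, while 4.02% of all 14862 genes tested were called in this comparison and 2.66% were called lower. Calls needed an adjusted p below 0.05 together with a fold change above 1.3, up or down (edgeR's quasi-likelihood test, Benjamini-Hochberg adjustment over all genes tested). The fitted log2 fold change was negative for 8 of 9 genes, with a median of -0.39, against 0.00165 over all genes tested.

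Fosb, an AP-1 subunit whose spliced form accumulates with repeated stimulation, had the lowest levels with shSCR. It was at 0.737, 1.08, 0.786, 0.754 and 0.607 CPM in the 5 SCA7 mice with shSCR and at 2.03, 1.51, 1.05 and 2.81 CPM in the 4 WT mice. Only the highest mouse with shSCR and the lowest WT mouse overlap. The fitted log2 fold change was -1.22 ± 0.249 (SE, adjusted p = 0.00288), which puts WT mice 2.33-fold above. The counts behind these levels are 23 to 38 reads with shSCR and 45 to 109 reads in WT mice.

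Nr4a1 was at 23.1, 32.2, 27.5, 18.5 and 21.6 CPM with shSCR and at 37.6, 31.8, 34.4 and 46.0 CPM in WT mice. Again 1 mouse with shSCR, replicate 2, reached into the WT range. The log2 fold change was -0.60 ± 0.146 (SE, adjusted p = 0.00933). Egr1, which also responds to growth factors, was at 42.9, 66.3, 54.2, 34.5 and 41.5 CPM with shSCR and at 79.6, 66.3, 56.1 and 66.2 CPM in WT mice, with a log2 fold change of -0.49 ± 0.146 (SE, adjusted p = 0.0323). Its lowest 4 values belong to mice with shSCR, and replicate 2 is at the level of the WT mice.

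Fos, the partner of Jun proteins in AP-1 and the usual marker of recent activity, varied too much between the shSCR mice to be called. Its levels were 9.32, 30.7, 18.9, 4.55 and 10.5 CPM with shSCR and 30.7, 21.2, 18.4 and 31.3 CPM in WT mice, and the log2 fold change was -0.78 ± 0.385 (SE, adjusted p = 0.193). Replicate 2 with shSCR was as high as the WT mice, and without it Fos was called at a log2 fold change of -1.22 (adjusted p = 0.0282), the only 1 of 9 fits without 1 mouse in which it was called. Over these 9 fits its log2 fold change lay between -1.22 and -0.55, with adjusted p up to 0.348. Junb, whose exons overlap Prdx2 on the opposite strand, gave -0.38 ± 0.129 (adjusted p = 0.0540), with 6.09 to 8.32 CPM against 7.80 to 12 CPM, Npas4 gave -0.39 ± 0.212 (adjusted p = 0.242), and Dusp1, which overlaps Ergic1 in the same way, and Ier2 both gave -0.23 (adjusted p = 0.357 and 0.124). Arc was the exception to the sign, at 0.14 ± 0.0714 (adjusted p = 0.207). Egr2 was at 0.0290 to 0.0528 CPM in 4 of the shSCR mice and 0.255 CPM in the remaining one, against 0.0774 to 0.292 CPM in WT mice, on 1 to 13 reads.

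In this comparison none of the 10 genes separated the groups without overlap, whereas 16.8% of all genes tested did. Fosb and Nr4a1 were called in each of 9 fits that left out 1 mouse. Egr1 was called in 3 of these 9 and was lost without shSCR replicate 1, 4 or 5 or WT replicate 1, 2 or 4 (adjusted p = 0.0606 to 0.107), and also with robust estimation (adjusted p = 0.0860). Junb was called with robust estimation or DESeq2 (adjusted p = 0.0477 and 0.0277) and without shSCR replicate 3, WT replicate 1 or WT replicate 3 (adjusted p = 0.0358, 0.0469 and 0.0329). Other values moved with these groups: all 10 of 10 Purkinje cell markers were below the WT range, and the summed level of 8 forebrain and midbrain markers was 122.2 to 141.1 CPM with shSCR and 170.2 to 327.9 CPM in WT mice. Camk2a made up most of that sum. Of the 5 markers tested in this list, 2 fitted changes were positive and 3 negative, with a median of -0.05 and 1 called lower. Blood markers summed to 5.86 to 31.8 CPM with shSCR and 6.34 to 11.7 CPM in WT mice. Oligodendrocyte markers summed to 3706 to 4468 CPM with shSCR and 5017 to 5944 CPM in WT mice, with 2 of 8 called lower. Astrocyte and Bergmann glia markers summed to 3168 to 3413 CPM and 3624 to 3713 CPM, with 4 of 8 below the WT range in every shSCR mouse. The part of these in the result was not tested.

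In SCA7 mice with shA4, Fosb and Nr4a1 were again below WT mice, and Egr1 was not called. The 2 genes called, both lower, are 2 of 9 tested, beside 3.45% of all genes called and 2.27% called lower. Fosb was at 1.35, 1.17, 1.06, 0.952 and 0.857 CPM in the 5 mice with shA4, which is a log2 fold change of -0.77 ± 0.242 (SE, adjusted p = 0.0438) against the WT mice given above. Nr4a1 was at 25, 21.8, 31.7, 32.1 and 25.8 CPM, with a log2 fold change of -0.46 ± 0.145 (SE, adjusted p = 0.0454). The WT mouse with the lowest Fosb lies within the shA4 range, and the highest of the 5 shA4 mice reached just above the lowest WT value of Nr4a1. All 9 fitted changes were negative, with a median of -0.18 against 0.00614 over all genes tested.

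Fos was at 20.3, 10.9, 28.4, 28.5 and 27.7 CPM with shA4, so that 4 of 5 mice lay within the WT range, and its log2 fold change was -0.14 ± 0.379 (SE, adjusted p = 0.863). Egr1 was at 58.6, 60.9, 58.7, 74.0 and 71.6 CPM, all within the WT range, with a log2 fold change of -0.05 ± 0.145 (adjusted p = 0.862) and an interval of -0.37 to 0.27. Intervals here are at 95% and use the residual degrees of freedom of the fit. Ier2 gave -0.22 and Junb -0.25 (adjusted p = 0.157 and 0.234), and Dusp1, Npas4 and Arc lay between -0.18 and -0.07 (adjusted p = 0.295 to 0.826). None of the 10 genes separated the groups, whereas 13.4% of all genes tested did.

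These 2 calls with shA4 are near the threshold. With 1 mouse left out, both genes were called only without WT replicate 2, and neither was called without shA4 replicate 2, shA4 replicate 5, WT replicate 1 or WT replicate 4. Either Fosb or Nr4a1 alone was called without shA4 replicate 1, 3 or 4 or WT replicate 3. Fosb was lost with only the 2 groups compared (adjusted p = 0.0822), Nr4a1 with robust estimation or with DESeq2 (adjusted p = 0.103 and 0.0629), and both with the normal prior of DESeq2. Purkinje cell markers moved with these groups too, at a sum of 7476 to 8629 CPM with shA4 and 10000 to 11070 CPM in WT mice, with 4 of 10 called lower, as did oligodendrocyte markers, at 4166 to 4697 CPM and 5017 to 5944 CPM, with 1 of 8 called lower. Their part in the result was not tested. The WT mice are shared by both SCA7 comparisons, so the values with shSCR and with shA4 are not independent.

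Between the SCA7 groups, 0 of the 9 genes tested were called and 0.0% of all genes were called (edgeR's quasi-likelihood test). Egr1 and Arc, 2 of the 9 genes, had an unadjusted p under 0.05, as had 1222 of 14862 genes in all, and DESeq2 called 0 of the 9 and 4 genes in all. The fitted difference of shA4 over shSCR was positive for 8 of 9 genes, with a median of 0.16 against 0.000206 over all genes. It was 0.64 ± 0.369 for Fos, with an interval from -0.17 to 1.45, 0.45 ± 0.247 for Fosb (interval -0.10 to 0.99) and 0.43 ± 0.139 for Egr1 (interval 0.13 to 0.74, adjusted p = 0.514).

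Arc had the opposite sign, at -0.26 ± 0.0679 (SE, interval -0.41 to -0.11, adjusted p = 0.398). Arc levels were 25.4, 29.9, 24.0, 26.0 and 26.7 CPM with shA4 and 32.9, 28.0, 32.7, 33.7 and 31.3 CPM with shSCR, and shSCR replicate 2, the mouse with the highest Fos, had the lowest Arc of its group. Nr4a1, Npas4, Dusp1 and Junb lay between 0.14 and 0.21, and Ier2 was at 0.01 with an interval of -0.19 to 0.21. None of the 10 genes separated the SCA7 groups, and 1.49% of all genes did. A loss of the Egr1 call between the comparisons with WT mice is therefore not a difference between the SCA7 groups that passed the test. Fitted differences were positive for 10 of 10 glucocorticoid response genes (median 0.17) and 5 of 5 forebrain and midbrain markers tested (median 0.34). For blood markers 8 of 8 were negative (median -0.80). The sums of these 3 lists overlapped between the SCA7 groups, and their part in the values was not tested.

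**Figure D2:**
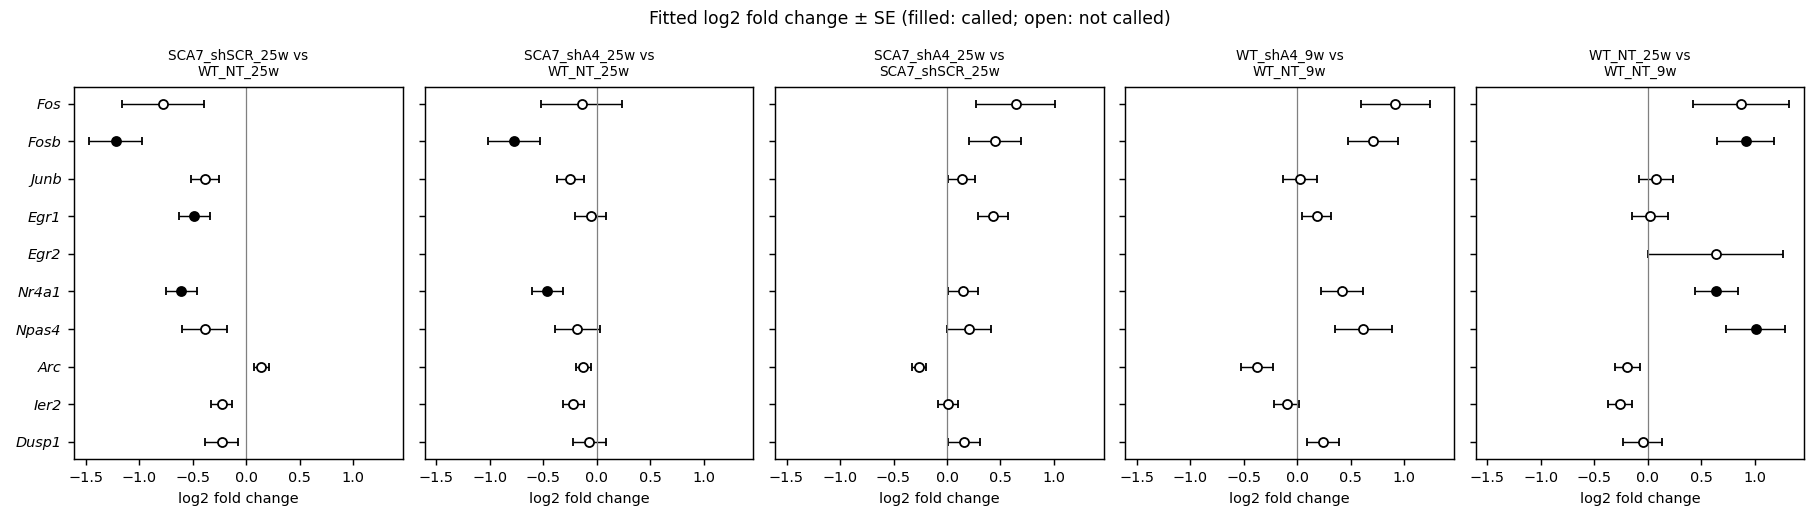
Fitted log2 fold change (horizontal axis) with its SE for each gene (vertical axis) in 5 comparisons, one to a panel. Filled points were called and open points were not, and Egr2 appears only where it was tested. In the panel of shSCR against WT, 8 of 9 points are left of 0, and in that of shA4 against shSCR, 8 of 9 are right of 0.

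At 9w, WT mice with shA4 had no called gene among the 9 tested, and 0.0543% of all 14733 genes tested, 8 genes, were called. Fos was at 13.9, 41.5 and 23.5 CPM with shA4 and 18.4, 13.7 and 9.68 CPM in untreated mice, a log2 fold change of 0.92 ± 0.321 (SE, adjusted p = 0.346). Replicate 2 with shA4 had the highest Fos of the 20 mice. Fosb was at 1.74, 1.66 and 1.39 CPM with shA4 and 0.946, 1.22 and 0.770 CPM without, a log2 fold change of 0.70 ± 0.236 (adjusted p = 0.328), and its groups did not overlap. It was 1 of the 10 genes without overlap, and 16.0% of all genes tested had none.

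Npas4 gave 0.62 ± 0.265 and Nr4a1 0.41 ± 0.195 at 9w (adjusted p = 0.420 and 0.461), and Arc gave -0.38 ± 0.150 (adjusted p = 0.381). Junb, Egr1, Ier2 and Dusp1 lay between -0.10 and 0.24. Fos, Fosb, Npas4 and Arc, 4 of the 9 genes, had an unadjusted p under 0.05, beside 1639 of 14733 in all, and DESeq2 called 0 of the 9 and 53 genes in all. A list of 10 clock genes that peak with Per2 summed to 1452 to 1530 CPM with shA4 and 1199 to 1252 CPM without, with 10 of 10 fitted changes positive. Astrocyte and Bergmann glia markers summed to 4028 to 4208 CPM with shA4 and 3739 to 3870 CPM without, with 8 of 8 changes positive. Oligodendrocyte markers summed to 6544 to 6769 CPM and 7084 to 7241 CPM, with 8 of 8 negative. Microglia markers had 8 of 8 positive changes, though their sums overlapped. The part of these lists in the values was not tested.

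Among untreated WT mice, Npas4, Fosb and Nr4a1 were higher at 25w than at 9w. They are 3 of 10 genes tested in the fit of all 20 libraries, beside 5.27% of 15095 genes called and 3.29% called higher. Npas4 was at 4.59, 5.26, 4.74 and 6.45 CPM at 25w and 2.09, 3.46 and 2.29 CPM at 9w, without overlap, with a log2 fold change of 1.01 ± 0.274 (SE, adjusted p = 0.0111). The 9w levels of Fosb and Nr4a1 were 0.946, 1.22 and 0.770 CPM and 24.8, 28.5 and 18.8 CPM, so that Nr4a1 did not overlap and Fosb did. Fosb changed by 0.92 ± 0.266 (adjusted p = 0.0163) and Nr4a1 by 0.64 ± 0.198 (adjusted p = 0.0227).

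Not called between these labels were Fos, at a log2 fold change of 0.87 ± 0.453 (SE, adjusted p = 0.172), and Egr2 at 0.63 ± 0.630 (adjusted p = 0.505). Nor was Egr1, at 0.02 ± 0.170 (adjusted p = 0.953), with 56.1 to 79.6 CPM against 55.6 to 73.9 CPM. Ier2 was at 13.1 to 15.4 CPM against 15.1 to 18.7 CPM, a log2 fold change of -0.26 ± 0.115 (adjusted p = 0.105). In all, 2 of the 10 genes separated the groups, both higher, and 33.4% of all genes tested did. The 3 calls were lost without replicate 1 or replicate 3 of the 9w mice, and without replicate 4 of the 25w mice only Npas4 was called. Age, time of sampling and experiment cannot be told apart in this comparison. Oligodendrocyte markers summed to 5017 to 5944 CPM at 25w and 7084 to 7241 CPM at 9w, and granule cell markers to 5443 to 6473 CPM and 6735 to 7426 CPM. Purkinje cell markers summed to 10000 to 11070 CPM at 25w and 9138 to 9834 CPM at 9w. As a list they did not shift, with 6 of 10 fitted changes positive and 4 negative, a median of 0.01 and 0 called. Microglia markers were at 176.0 to 199.3 CPM and 156.2 to 164.8 CPM. Clock genes that peak with Per2 were at 1302 to 1433 CPM and 1199 to 1252 CPM, with 3 of these 10 called higher. The sums of astrocyte and Bergmann glia markers (3624 to 3713 CPM and 3739 to 3870 CPM) and of meningeal fibroblast markers (135.3 to 141.8 CPM and 159.8 to 189.1 CPM) were lower at 25w with no overlap. The part of these in the values between the labels was not tested.

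Other genes of the same response were read from 3 lists. Of 40 other rapid response genes tested with shSCR against WT mice, 1 was called higher and 9 lower, where 4.02% of all genes were called and 2.66% called lower, and the median change over the list was -0.12 on the log2 scale. Dusp5, a nuclear phosphatase of ERK, showed the largest drop among these 9, from 134.8 to 163.3 CPM in WT mice to 59.0 to 81.9 CPM with shSCR and 67.0 to 92.3 CPM with shA4 (log2 fold change -0.95 ± 0.0943 and -0.90 ± 0.0941, adjusted p = 2.39e-06 and 4.71e-06). Trib1, a pseudokinase, was at 26.8 to 29.8 CPM in WT mice, 13.9 to 21.0 CPM with shSCR and 17.0 to 21.5 CPM with shA4. Egr4, a relative of Egr1, and Ier3 were lower in both SCA7 groups as well, at -0.68 and -0.40 with shSCR and -0.87 and -0.45 with shA4. With shA4 these 4 genes were the only ones called among the 40, where 2.27% of all genes were called lower.

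Klf4 was at 5.65 to 9.41 CPM with shSCR and 9.42 to 13.0 CPM in WT mice (log2 fold change -0.78 ± 0.155, adjusted p = 0.00220). Jun, the AP-1 partner of Fos, was the 1 gene higher with shSCR, at 66.6 to 74.8 CPM against 51.2 to 53.9 CPM (0.43 ± 0.0531, adjusted p = 2.34e-05). Its level in the 9w untreated mice was 66.6 to 79.0 CPM. Of 20 slower activity-regulated genes tested, 0 were higher and 4 lower with shSCR (Stac, Pcsk1, Vgf and Nptx2, median over the list -0.23), and 2 were lower with shA4 (Stac and Vgf). Stac, an adaptor of calcium channels, was at 18.8 to 20.8 CPM in WT mice, 10.4 to 13.1 CPM with shSCR and 9.83 to 12.6 CPM with shA4. Nptx2 overlapped, at 0.344 to 0.766 CPM (12 to 29 reads) with shSCR and 0.696 to 2.55 CPM in WT mice. The highest WT value of Nptx2 and of Vgf was in replicate 1 (2.55 and 41.0 CPM), and the other WT mice reached 1.35 and 34.0 CPM. In Stac and Pcsk1 that mouse was the lowest WT mouse. Its part in the calls was not tested. Of 32 upstream kinases and transcription factors tested, 1 was lower with shSCR (Camk2a, -0.67 ± 0.164), a share near the 2.66% of all genes. Camk2a was at 236.9 CPM in WT replicate 1 and at 137.8 to 150.6 CPM in the other WT mice. With shA4, edgeR and DESeq2 both called 0 of the 32. In edgeR's test 17 of these had an unadjusted p under 0.05, as had 3950 of 14862 genes in all.

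**Figure D3:**
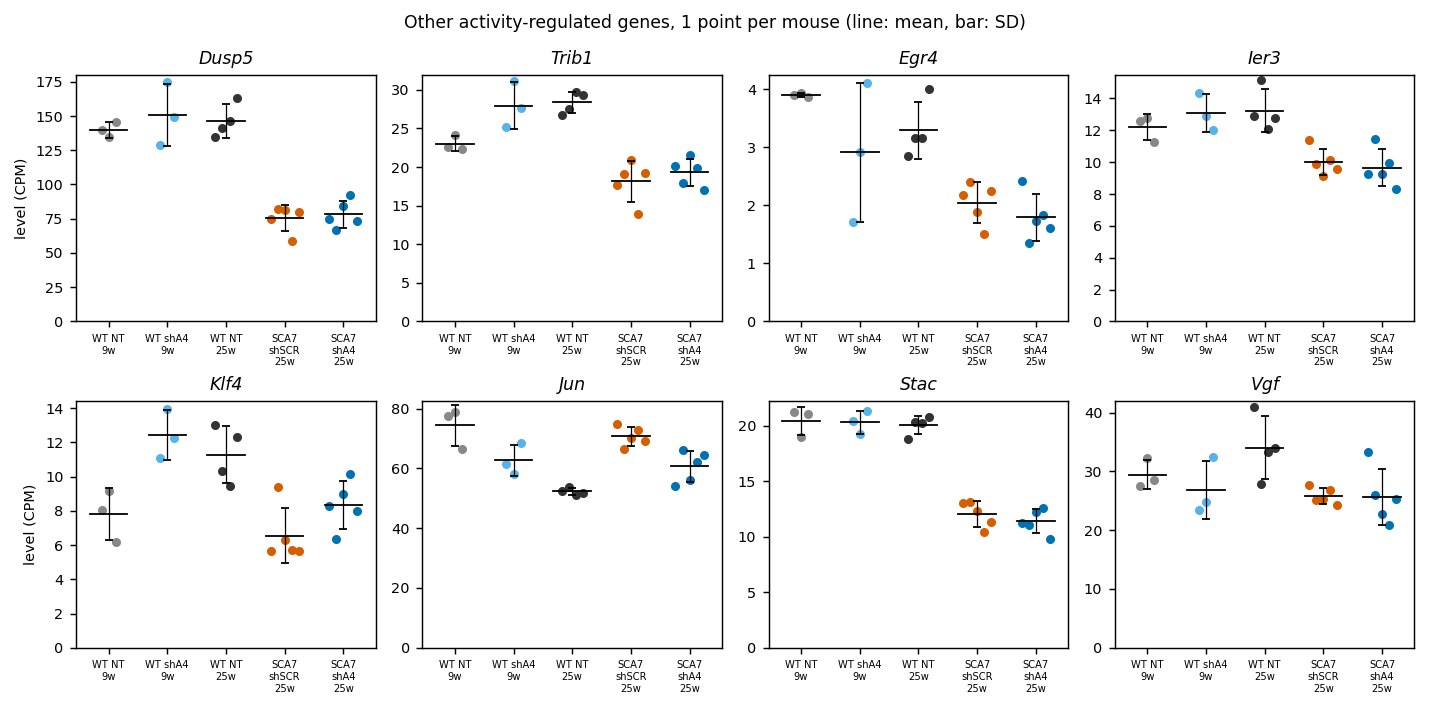
Level in CPM (vertical axis, linear from 0) of 8 other activity-regulated genes in each of 20 mice by group (horizontal axis), with the mean as a line and the SD as a bar. Dusp5 lies at 59.0 to 92.3 CPM in the 10 SCA7 mice and at 129.1 CPM or above in the 10 WT mice.

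Between untreated WT mice at 25w and 9w, 5 of the 40 other rapid response genes were higher and 4 lower, where 5.27% of all genes were called and 3.29% called higher. Dusp4, another MAP kinase phosphatase, and Klf6 rose by 1.08 ± 0.133 and 0.40 ± 0.0792 on the log2 scale (SE, adjusted p = 1.08e-05 and 0.00106), and Jun and Klf10 fell by 0.51 and 0.69. Of the slower list, Homer1, Pcsk1 and Fam126b were higher, and of the upstream list Npas2 was lower. At 9w with shA4 and between the SCA7 groups, edgeR called 0 genes of the 3 lists. An unadjusted p under 0.05 was found for 14 and 10 of 40 rapid response genes, beside 1639 of 14733 and 1222 of 14862 genes in all. DESeq2 called 3 of these 40 higher and 1 of 32 upstream genes lower at 9w, and 0 of either between the SCA7 groups.

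Mice of the same group differed widely in some of these genes and less in others. In the fit of the 25w mice the biological coefficient of variation was 0.407 for Fos, above that of 98.5% of genes tested, 0.240 for Fosb and 0.219 for Npas4, against a median of 0.0615 over all genes. Arc, at 0.0742, was above 59.3% of genes. Within the shSCR group Fos spanned 6.74-fold and Arc 1.20-fold.

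After the mean of each group was removed, 4 genes moved together over the 20 mice. Pearson's r was 0.93 for Fos and Dusp1 (Spearman's rho 0.892), 0.91 for Nr4a1 and Dusp1, 0.87 for Fos and Nr4a1, 0.87 for Fos and Egr1, 0.83 for Egr1 and Dusp1 and 0.76 for Egr1 and Nr4a1. The lowest r among these pairs is 0.68 when the mice farthest from the median, shSCR replicates 2 and 4, are left out. Junb and Ier2 formed another pair (r = 0.65, rho 0.626) and had only weak relations with Fos (r = 0.14 and 0.19).

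Arc ran against these 4 genes, with r = -0.57 to Fos (rho -0.574) and -0.55 to Dusp1 (rho -0.499), and had a positive r with 3 of 9 genes. Of the 45 pairs of genes, 36 had a positive r, and the median was 0.31. The values are given as a description with n = 20, and the points of a pair share a library, its depth and its tissue. In single mice, shSCR replicate 2 was above its group mean in 7 of 8 genes (all tested but Arc), replicate 3 in 8 of 8, and replicates 4 and 5 in 0 of 8. In the 25w WT mice replicate 4 was above in 7 of 8 and replicate 3 in 0 of 8.

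**Figure D4:**
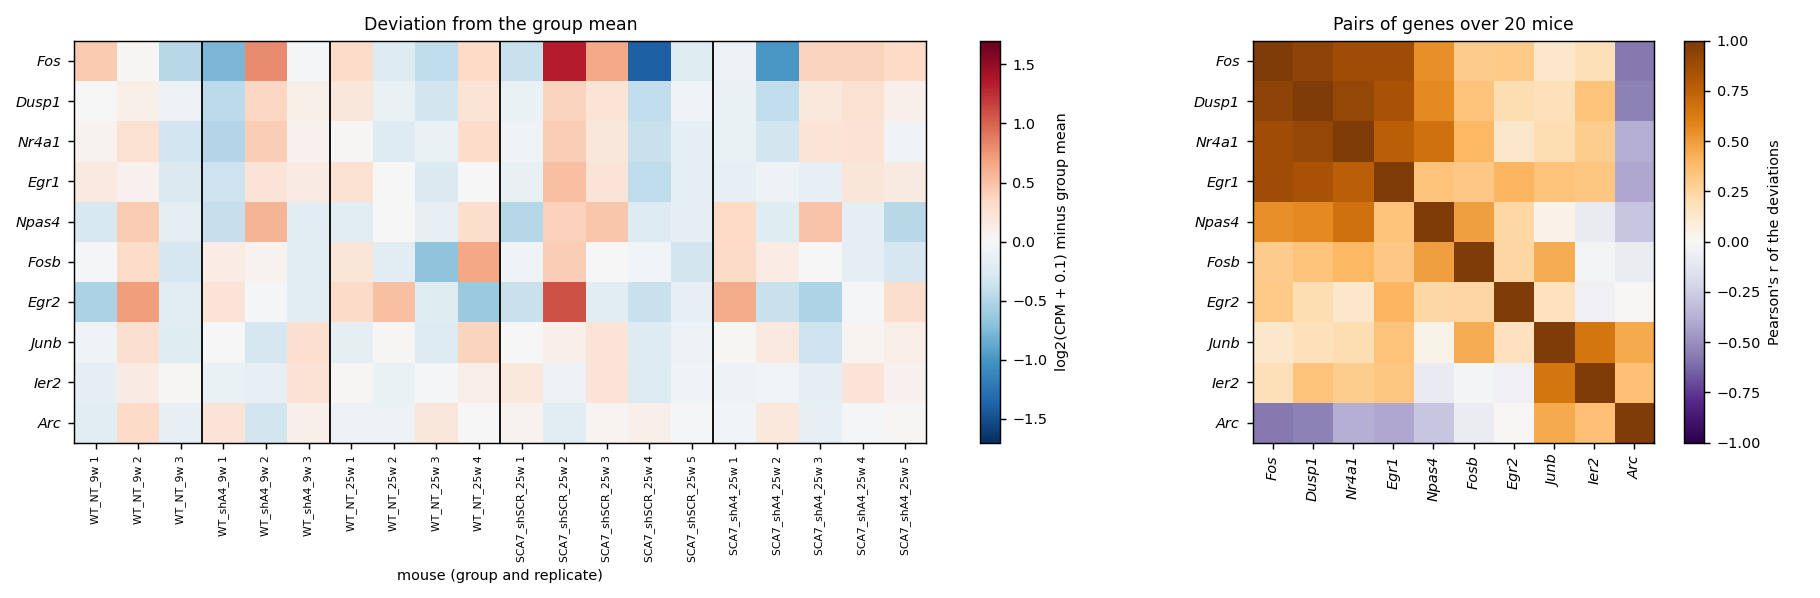
Left, deviation of each mouse (horizontal axis, by group and replicate) from its group mean for each gene (vertical axis) in log2(CPM + 0.1). Right, Pearson's r of these deviations for each pair of genes over 20 mice, where Fos, Dusp1, Nr4a1 and Egr1 form a block of r between 0.76 and 0.93 and Arc is at -0.57 to Fos.

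The mean of the standardised deviations of the 9 genes tested in every fit, all but Egr2, was then compared with every other gene so tested. Over 14634 genes the median r was 0.00207 and 99% lay below 0.54, and the lowest was -0.76. The single genes most like it were Alg3, a mannosyltransferase of protein glycosylation (r = 0.83), Klf4 (r = 0.76) and 1700028J19Rik (r = 0.73), followed by 4933407L21Rik, Gm10134, Polr3b, Tes, Mrgprh, Slc25a53 and Irgq (r = 0.68 to 0.72). Without the 2 mice farthest from the median, the r of these 10 genes lay between 0.57 and 0.80. Klf4 is the only one of these 10 in the lists of activity-regulated genes. Alg3 stayed between 13.8 and 19.7 CPM over the 20 mice and was not called with shSCR against WT mice (log2 fold change -0.00268, adjusted p = 0.986), while Klf4 was called lower there. Among the means of whole lists, which average out noise that a single gene keeps and so cannot be set beside the values above, that of 40 other rapid response genes followed the members with r = 0.73 (rho 0.750), and those of the other lists with r between -0.17 and 0.32.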

How the data were processed

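The members and the gene lists were chosen with earlier results of these data known. Per the study's methods and the submitters' processing notes, the authors trimmed reads with cutadapt 1.10, removed ribosomal reads with Bowtie2 2.2.8, aligned the others to mm10 with STAR 2.5.3a and counted them on Ensembl genes with HTSeq 0.6.1p1. The deposited values are raw counts per gene and library, not normalized by the authors. The kit marks strand, but whether the counting used strand is not given in the sources used here, so that exon overlaps on the opposite strand (Junb with Prdx2, Dusp1 with Ergic1) leave these genes uncertain.

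Symbols, gene types and positions came from GENCODE M21, which holds 55141 of the ids and lacks 260. Of 219 list symbols, 218 were found. Protein-coding genes passing filterByExpr (minimum count 10, minimum total 15) were tested with the quasi-likelihood test of edgeR 4.0.16 in R 4.3.3 (limma 3.58.1). TMM scaling and Benjamini-Hochberg adjustment were used. The fits held the 6 mice at 9w, the 14 at 25w and all 20 (for untreated WT mice between labels). DESeq2 1.42.0 was an alternative. CPM use TMM library sizes of the 20-library fit, and correlations log2(CPM + 0.1). Levels per kb use the median transcript length. On simulated counts with known changes, those of 1 in log2 were recovered for 93% of genes and those of 0.5 for 72% in shSCR against WT, over 14799 genes. For shA4 against untreated at 9w it was 91% and 59%, over 14659 genes. The changed genes were drawn at random from all genes tested. The members' coefficients of variation in the 25w fit ran from 0.0742 (Arc) to 0.407 (Fos), against a median of 0.0615. These shares therefore do not apply to the members.

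Counting noise alone is smaller than the spread between mice (chi-squared per degree of freedom 4.73 to 22.8 over 32 pairs of mice of 1 group).

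Named genes are the 10 members, at most 5 called genes of each of 3 lists and comparison by lowest adjusted p, and the 10 genes most like the members' mean. Labels give 25w where the text of the study speaks of weeks after injection, and the labels are used. The authors' own fold changes and p-values were not used.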

Additional observations from a re-analysis of the deposited data

Results flagged for a closer look

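In 30 combinations of a gene with a group of 4 or 5 mice, 1 mouse stood apart from the others of its group by Dixon's criterion at the 95% level, where chance gives about 1 in 20. This was Egr2 in SCA7_shSCR_25w replicate 2, at 0.255 CPM (9 reads), while the nearest mouse of the group was at 0.0528 CPM and the 4 others had 1 or 2 reads each. The same mouse had the highest Fos, Egr1, Nr4a1, Fosb and Dusp1 of its group and the lowest Arc.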

How the results depend on the processing

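The number of the 10 genes called was 3 with shSCR against WT mice and lay between 2 and 4 when 1 mouse was left out, 2 with the replicate number as a block, 4 with DESeq2 and 1 with its normal prior, which shrinks fold changes. Robust estimation exchanged Egr1 (adjusted p = 0.0860) for Junb (0.0477), and DESeq2 added Junb (0.0277). With shA4 against WT mice it was 2, and 0 to 2 without 1 mouse, 1 with robust estimation, with only the 2 groups compared or with DESeq2, and 0 with the block or with the normal prior. Between WT labels it was 3, and 0 to 3 without 1 mouse. It was 2 with robust estimation (Nr4a1, adjusted p = 0.0509) and with the prior, where Nr4a1 fell under the fold limit. With only those 2 groups, Fosb was lost (0.0638) and Fos called (0.0230). At 9w and between the SCA7 groups it was 0 under every alternative run. Of all genes, 8 were called at 9w, 1 to 43 without 1 mouse, 26 with no filter on low counts, 16 over every biotype, 19 with robust estimation, 37 with the replicate block, 20 with all 20 libraries in 1 fit and 53 with DESeq2. On adjusted p alone, 2309 genes were called with shSCR, 2018 with shA4 and 3651 between WT labels. With the normal prior 287, 266 and 445 were called. Between the SCA7 groups, where the main count was 0, DESeq2 called 4 genes and, with the prior, 3.

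Signs turned only where 1 mouse was left out, in genes that were not called. The log2 fold change then ranged from -0.13 to 0.18 for Junb at 9w. With shA4 against WT mice it ranged from -0.27 to 0.041 for Fos, -0.17 to 0.020 for Dusp1 and -0.13 to 0.043 for Egr1. Between the SCA7 groups it ranged from -0.047 to 0.071 for Ier2. Between WT labels it ranged from -0.13 to 0.050 for Dusp1, -0.10 to 0.10 for Egr1 and -0.068 to 0.22 for Junb. The median r over 45 pairs of genes was 0.31, and 0.20 without the 2 mice farthest from the median. Replicate numbers do not pair the mice: deviations of same-numbered mice correlated at r = -0.22 to 0.54, and not every mouse correlated best with its own number. The block left Egr1 uncalled with shSCR (adjusted p = 0.0593) and Fosb and Nr4a1 with shA4 (adjusted p = 0.0990 and 0.1005), and changed no other count of called members. The cause of these shifts was not tested. Counts were low for Egr2, with 1 to 14 reads in a library, and for Fosb, with 23 to 109.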
